A study of Homo sapiens with 7 samples.

Results

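The genes described here encode the cargo proteins of dense-core secretory granules and the enzymes that process prohormones inside them. They were chosen by name as a set of 10 genes: the granins CHGA, CHGB, SCG2, SCG3 and VGF, the prohormone convertases PCSK1 and PCSK2, their binding proteins PCSK1N and SCG5, and the carboxypeptidase CPE. All 10 were among the 28517 entries of the count tables, and 8 of them passed the filter on low values, a mean of at least 0.5 RPKM (counted reads scaled by transcript length and by the total of the library) over the control and ARID1A-/- libraries. SCG5 and PCSK2 did not pass and are described from their counts.

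RNA sequencing was performed on the MYCN-amplified human neuroblastoma line NGP and on lines derived from it with mutations in ARID1A, which encodes a subunit of the SWI/SNF chromatin remodeller BAF. The series comprised 7 libraries, 2 of control NGP cells, 2 of ARID1A-/- line 1 (labelled #1), 2 of ARID1A-/- line 2 (labelled #2) and 1 of an ARID1A+/- line. All cells, the control included, were grown with 10% serum and 0.5 µg/ml puromycin. For the control and both ARID1A-/- lines, the first library was made with the SMARTer kit and the repeat with the KAPA kit, and KAPA was also used for the ARID1A+/- library. The control and ARID1A+/- are 1 line each and ARID1A-/- is 2 lines, so differences from the control cannot be told apart from differences between lines, and the labels do not say what the mutations are. Whether repeat libraries of a line stem from independent cultures is not stated, so a p-value here reflects only how far these libraries vary, and that variation may be technical.

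Dense-core granules are the storage compartment of the regulated secretory pathway in neuroendocrine cells, including sympathetic neurons and the chromaffin cells of the adrenal medulla, the lineage from which neuroblastoma arises. Granins aggregate in the trans-Golgi network and sort cargo into budding granules, where the convertases cleave propeptides at paired basic residues and CPE trims the basic residues that remain. PCSK1N (proSAAS) binds and inhibits PCSK1, and SCG5 (7B2) accompanies PCSK2 and is needed for its activation. Circulating chromogranin A, the product of CHGA, is a tumour marker of neuroendocrine neoplasms.

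The total count per library was between 24445301 and 43644361. ARID1A mRNA was detected in every library, at 22.3 and 22.0 RPKM in the control, 13.8 to 17.2 RPKM in the 4 ARID1A-/- libraries and 19.9 RPKM in the ARID1A+/- library. The log2 change in both lines against control was -0.54 ± 0.09 (SE; edgeR adjusted p = 0.012). The labelled cell type was checked with 10 sympathoadrenal markers, of which 9 passed the filter. HAND2 stood at 276 to 349 RPKM, PHOX2A at 131 to 437 RPKM and GATA3 at 70.8 to 154 RPKM over the 7 libraries. Of the 9 markers tested, 2 rose and 2 fell in the mean of both ARID1A-/- lines, beside 4.64% and 9.57% of all genes tested. TH, the rate-limiting enzyme of catecholamine synthesis, did not pass the filter and reached at most 0.456 RPKM. The summed level of the 10 sympathoadrenal markers was between 737 and 1179 RPKM. In bulk RNA, fewer cells of a type and less RNA per cell cannot be told apart.

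The sequences just upstream of 4 of these genes are shown because 3 of them, CHGA, PCSK1 and VGF, share an exact cAMP response element, the palindrome TGACGTCA. PCSK1N is set beside them as a gene that moved in both lines and has no such match. Each run is the 250 bases before the annotated start in RefSeq (GRCh38.p14, whereas the reads were aligned to hg19), written 5′ to 3′ on the strand of the gene, with TGACGTCA in capitals. The positions are chr14:92922900-92923149 on the plus strand for CHGA, and on the minus strand chr5:96433249-96433498 for PCSK1, chr7:101165570-101165819 for VGF and chrX:48835611-48835860 for PCSK1N.
CHGA: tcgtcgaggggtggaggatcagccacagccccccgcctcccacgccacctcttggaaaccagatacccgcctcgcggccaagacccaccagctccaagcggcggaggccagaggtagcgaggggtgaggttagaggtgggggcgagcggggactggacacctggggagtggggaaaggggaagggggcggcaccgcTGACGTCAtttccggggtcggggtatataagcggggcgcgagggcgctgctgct
PCSK1: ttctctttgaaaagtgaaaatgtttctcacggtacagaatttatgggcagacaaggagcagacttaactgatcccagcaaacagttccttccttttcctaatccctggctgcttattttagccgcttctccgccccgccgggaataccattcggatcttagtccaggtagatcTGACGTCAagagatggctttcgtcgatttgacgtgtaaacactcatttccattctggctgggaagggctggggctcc
VGF: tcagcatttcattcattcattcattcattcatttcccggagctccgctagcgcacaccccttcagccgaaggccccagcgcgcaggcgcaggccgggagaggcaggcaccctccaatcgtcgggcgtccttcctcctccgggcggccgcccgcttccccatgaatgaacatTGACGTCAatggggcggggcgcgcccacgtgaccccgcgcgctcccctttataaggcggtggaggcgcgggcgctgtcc
PCSK1N: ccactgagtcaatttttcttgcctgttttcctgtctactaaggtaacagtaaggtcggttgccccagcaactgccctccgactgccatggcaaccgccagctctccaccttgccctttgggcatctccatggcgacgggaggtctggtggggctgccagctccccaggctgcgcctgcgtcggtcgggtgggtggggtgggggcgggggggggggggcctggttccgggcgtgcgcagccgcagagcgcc
The element begins 54 bases before the start of CHGA, 77 bases before that of PCSK1 and 79 bases before that of VGF. RefSeq start regions were matched for 8 of the 10 members, with 10 start sites in all, and the second start of PCSK1 and the starts of SCG3, SCG5, PCSK2, CPE and PCSK1N hold no TGACGTCA in this window. Over the same window, 578 of 35116 promoters, or 1.65%, hold the element on either strand. The motif TGACG, which is contained in TGACGTCA on both strands, occurs in 21.2% of these promoters, TATAAA in 10.7% and GGGCGG in 42.6%. These matches describe letters only, and a part of the element in the changes below was not tested. In the mean of both ARID1A-/- lines the log2 differences were 1.06 for CHGA, -0.39 for PCSK1 and -0.70 for VGF. In the ARID1A+/- library, set against the KAPA control, they were 0.83, 2.03 and 0.57. The fitted SMARTer minus KAPA differences of these genes also had the same sign (0.23, 1.09 and 1.41).

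The levels of the granule genes differed widely between members. CHGA was the member with the highest mean RPKM in every group, at 97.4 ± 24.9 RPKM (SD, n = 2) in the control, 239 ± 0.09 RPKM (SD, n = 2) in line 1 and 174 ± 29.3 RPKM (SD, n = 2) in line 2. In the control it was followed by CHGB, SCG2, CPE and SCG3, with means between 37.7 and 62.8 RPKM. Neighbours in this order, CHGA and CHGB included, did not differ beyond their SD, which holds the difference between kits. Within each control library CHGA was above CHGB, CHGB above SCG2 and CPE above SCG3, whereas SCG2 and CPE changed places between the libraries. VGF and PCSK1N came next, at 11.1 ± 5.40 and 10.2 ± 5.93 RPKM (SD, n = 2 each), which did not differ beyond their SD either. VGF was the higher of these in both control libraries. PCSK1 followed at 1.82 ± 0.89 RPKM (SD, n = 2), SCG5 at 0.233 ± 0.043 RPKM (SD, n = 2), and PCSK2 was at 0. The 10 members together held 394.6 and 233.4 RPKM in the SMARTer and KAPA libraries of the control, 539.6 and 454.0 RPKM in line 1, 419.4 and 366.3 RPKM in line 2, and 318.9 RPKM in the ARID1A+/- library. The sum was higher in each ARID1A-/- library than in the control library of the same kit. This did not hold for every member. In the SMARTer library of line 2, CHGB, PCSK1, CPE and VGF were below the SMARTer control, and CHGA, SCG2, SCG3, SCG5 and PCSK1N were above it. CHGA supplied 29.1% and 34.2% of that sum in the control, 44.3% and 52.6% in line 1, and 36.5% and 53.1% in line 2. Its share in the ARID1A+/- library was 42.8%.

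**Figure D1:**
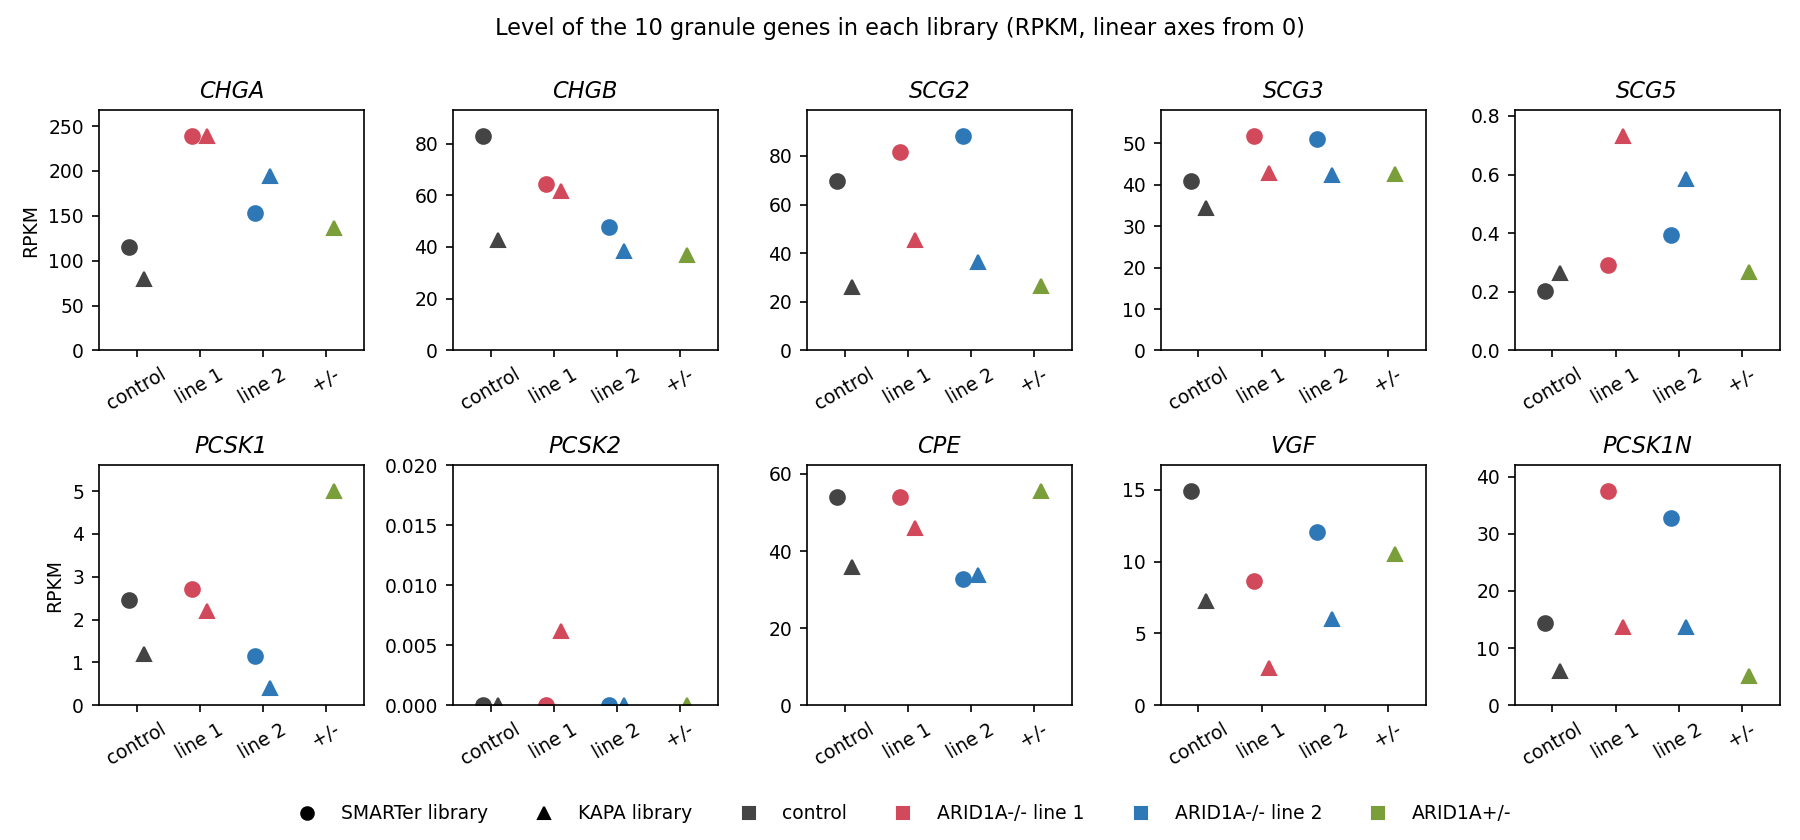
Level of each of the 10 granule genes in RPKM (linear vertical axes from 0), by group, with circles for SMARTer and triangles for KAPA libraries. CHGA, SCG3 and SCG5 in the 4 ARID1A-/- libraries sit above both control libraries, and PCSK1 is highest in the ARID1A+/- library at 5.0 RPKM. The share of all genes that separate in this way was not counted. After TMM scaling of the library totals, SCG3 in the KAPA libraries of both ARID1A-/- lines is below the SMARTer control.

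The first comparison asked which granule genes differed between both ARID1A-/- lines, as a mean, and the control. Of the 8 members tested, CHGA and PCSK1N rose, 0 fell and 6 did not pass the threshold (edgeR quasi-likelihood test with the kit as a term, Benjamini-Hochberg adjusted p under 0.05). Over all 14711 genes tested, 4.64% rose and 9.57% fell. The median log2 fold change was 0.09 over the 8 members and 0.02 over all genes. In line 1 alone CHGA and PCSK1N rose and VGF fell, against 4.75% of all genes that rose and 8.27% that fell. In line 2 PCSK1N rose and PCSK1 fell, against 5.47% and 8.52% of all genes.

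Among the granins, CHGA stood at 115 and 79.8 RPKM in the SMARTer and KAPA libraries of the control, 239 and 239 RPKM in line 1, 153 and 195 RPKM in line 2, and 137 RPKM in the ARID1A+/- library. All 5 mutant libraries were above both control libraries, and the groups did not overlap. Here and for the members below, the share of all genes that separate from the control in this way was not counted. CHGA rose 2.08-fold in both lines (log2 1.06 ± 0.19, SE; edgeR adjusted p = 0.016) and 2.47-fold in line 1 (log2 1.30 ± 0.22; edgeR adjusted p = 0.012). The value in line 2 was 1.75-fold (log2 0.81 ± 0.22; edgeR adjusted p = 0.054), short of the threshold, and the lines did not pass the test of the difference between them (log2 0.49 ± 0.21; edgeR adjusted p = 0.19). Without the KAPA library of the control, CHGA no longer passed the threshold in both lines (log2 0.71; adjusted p = 0.119) or in line 1 (log2 0.96; adjusted p = 0.069). DESeq2 called the rise in line 2 as well (log2 0.81; adjusted p = 0.0028).

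CHGB, the granin with the second highest mean in the control, did not pass the threshold in either line. It stood at 82.9 and 42.7 RPKM in the control, 64.5 and 61.6 RPKM in line 1, 47.8 and 38.4 RPKM in line 2, and 36.8 RPKM in the ARID1A+/- library. The control libraries enclosed both libraries of line 1, so these groups overlapped. The fitted log2 difference of CHGB was -0.23 ± 0.18 for both lines (edgeR adjusted p = 0.44), 0.07 ± 0.21 for line 1 and -0.53 ± 0.21 for line 2, and none passed the threshold. The RPKM ratio of CHGA to CHGB was 1.39 and 1.87 in the control, 3.70 and 3.88 in line 1, and 3.20 and 5.06 in line 2, and the ARID1A+/- library had 3.71. All 5 mutant libraries had a higher ratio than both control libraries. This ratio was not tested.

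SCG2 and SCG3, which sort cargo and, in the case of SCG2, also give rise to the peptide secretoneurin, were slightly higher in the ARID1A-/- libraries without passing the threshold. SCG2 stood at 69.7 and 26.1 RPKM in the control, 81.5 and 45.3 RPKM in line 1, 88.2 and 36.3 RPKM in line 2, and 26.4 RPKM in the ARID1A+/- library. The spread between kits was larger than that between groups, and within each kit both ARID1A-/- lines were above the control. The log2 difference of SCG2 for both lines was 0.44 ± 0.13 (edgeR adjusted p = 0.074), and DESeq2 called it (0.44; adjusted p = 0.031). SCG3 stood at 41.0 and 34.4 RPKM in the control, 51.8 and 42.9 RPKM in line 1, 51.2 and 42.3 RPKM in line 2, and 42.5 RPKM in the ARID1A+/- library. In RPKM the ARID1A-/- libraries did not overlap with the control libraries. On log2 CPM (counts scaled by the TMM-adjusted library total) they did. There the KAPA libraries of line 1 (7.07) and line 2 (7.06) were below the SMARTer control (7.19). The log2 difference of SCG3 was 0.30 ± 0.10 for both lines (edgeR adjusted p = 0.083), with nearly equal values in line 1 (0.34 ± 0.11) and line 2 (0.27 ± 0.11).

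VGF, whose product is cleaved into several bioactive peptides, was the granin that moved down. It stood at 14.9 and 7.27 RPKM in the control, 8.65 and 2.63 RPKM in line 1, 12.1 and 6.03 RPKM in line 2, and 10.5 RPKM in the ARID1A+/- library. Within each kit all 4 ARID1A-/- libraries were below the control, while the ranges over both kits overlapped. VGF fell by 1.08 ± 0.22 on the log2 scale in line 1 (edgeR adjusted p = 0.026). Its log2 difference was -0.32 ± 0.22 in line 2 (edgeR adjusted p = 0.37) and -0.70 ± 0.19 in both lines (edgeR adjusted p = 0.053), short of the threshold. The test of the difference between the lines gave -0.76 ± 0.22 (edgeR adjusted p = 0.074). The fall in line 1 was no longer called without the SMARTer library of the control (log2 -1.28; adjusted p = 0.129) or without its KAPA library (log2 -0.95; adjusted p = 0.158).

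PCSK1, a convertase, was the 1 member that edgeR called between the lines. It stood at 2.45 and 1.19 RPKM in the control, 2.72 and 2.20 RPKM in line 1, 1.16 and 0.404 RPKM in line 2, and 5.0 RPKM in the ARID1A+/- library. In RPKM line 2 was below both control libraries by a narrow margin, line 1 overlapped with the control, and the ARID1A+/- library was the highest of the 7. On log2 CPM the SMARTer library of line 2 (2.77) was above the KAPA control (2.70), so line 2 overlapped with the control as well. PCSK1 fell by 1.31 ± 0.29 on the log2 scale in line 2 (edgeR adjusted p = 0.032), whereas its log2 difference in line 1 was 0.54 ± 0.28 (edgeR adjusted p = 0.26). The counts behind these values ranged from 62 in the KAPA library of line 2 to 877 in the ARID1A+/- library. The fall in line 2 was lost without the SMARTer library of the control (log2 -1.25; adjusted p = 0.244), its KAPA library (log2 -1.40; adjusted p = 0.115) or the KAPA library of line 2 (log2 -0.98; adjusted p = 0.176). It also narrowly missed the threshold with limma on log2(RPKM + 1) (log2 -0.66; adjusted p = 0.055).

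The test of line 1 against line 2 called PCSK1 higher in line 1, with a log2 difference of 1.85 ± 0.30 (edgeR adjusted p = 0.011). It was the 1 member of 8 called higher, and 0 were called lower, against 5.71% and 7.1% of all genes. Without the KAPA library of line 2 the log2 difference was 1.49 and missed the threshold (adjusted p = 0.061). The next largest differences, in VGF (-0.76 ± 0.22), CHGB (0.61 ± 0.21) and CPE (0.61 ± 0.17), did not pass in edgeR, whereas DESeq2 called them (adjusted p = 0.025, 0.040 and 0.016). Of 9 fibroblast markers, 7 passed the filter. The summed level of the 9 was, like PCSK1, higher in line 1 than in line 2. It stood at 224 and 246 RPKM in line 1, 100 and 101 RPKM in the control, 65.3 and 61.9 RPKM in line 2 and 111 RPKM in the ARID1A+/- library. PCSK1 did not pass the threshold in line 1 against the control. The ARID1A+/- library had the highest PCSK1 of the 7 libraries (5.0 RPKM) but a sum below those of line 1. FAP was at 0 counts in all 7 libraries, and COL1A2 was at 0 counts in 3 libraries and at most 0.0336 RPKM in the others. COL1A1 supplied most of the sum in line 1, at 156 and 171 RPKM, and in the control, at 60.2 and 62.6 RPKM. Single markers did not all follow the sum, in which the control lay between the lines. DCN rose by 4.23 ± 0.54 in line 1 and 4.53 ± 0.55 in line 2, and LUM by 3.20 ± 0.19 and 0.78 ± 0.18. In the mean of both lines 3 of the 7 rose (LUM, DCN and COL3A1) and PDGFRB fell, beside 4.64% and 9.57% of all genes tested. Some fibroblast markers were thus higher in that mean, as CHGA and PCSK1N were. COL3A1 rose by 2.17 ± 0.18 in line 1 but was at -0.19 ± 0.18 in line 2 (edgeR adjusted p = 0.53). These markers were named after their values were seen, and their part in the changes of PCSK1, CHGA and PCSK1N was not tested.

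PCSK2, the other granule convertase, was essentially unmeasured. A single count was found in the KAPA library of line 1 and 0 in the other 6 libraries. A count of 0 allows a level of up to 3 counts, which is 0.0136 to 0.0243 RPKM in these libraries, counting error only. Its partner SCG5 was also low, with 11 and 8 counts in the control, 15 and 29 in line 1, 20 and 21 in line 2, and 11 for ARID1A+/-, or 0.203 and 0.263, 0.291 and 0.732, 0.395 and 0.584, and 0.268 RPKM. All 4 ARID1A-/- libraries were above both control libraries in RPKM. With counts summed over kits, 85 counts in both lines against 19 in the control gave a depth-scaled ratio of 2.09 for SCG5 (95% exact binomial interval 1.26 to 3.64, counting error only). Fitted without the filter, the log2 difference of SCG5 was 1.03 ± 0.49, short of the threshold (edgeR adjusted p = 0.216).

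PCSK1N, which encodes the PCSK1 inhibitor proSAAS, was the member that rose in both lines. It stood at 14.3 and 5.96 RPKM in the control, 37.5 and 13.7 RPKM in line 1, 32.7 and 13.8 RPKM in line 2, and 5.21 RPKM in the ARID1A+/- library. Within each kit both ARID1A-/- lines were above the control, and across kits the KAPA libraries of the ARID1A-/- lines were close to the SMARTer library of the control, so the ranges overlapped. PCSK1N rose 2.35-fold in both lines (log2 1.23 ± 0.14; edgeR adjusted p = 0.0029), with log2 values of 1.31 ± 0.16 in line 1 (edgeR adjusted p = 0.0045) and 1.16 ± 0.16 in line 2 (edgeR adjusted p = 0.0062). The lines did not differ detectably (log2 0.14 ± 0.15; edgeR adjusted p = 0.60). The rise was not called without the SMARTer library of the control (log2 1.17 for both lines, adjusted p = 0.089; 1.24 for line 1, adjusted p = 0.084; 1.10 for line 2, adjusted p = 0.106), nor, for line 2, without its KAPA library (1.19; adjusted p = 0.052). With the kit term left out, none of the 3 rises passed (adjusted p of 0.413, 0.436 and 0.502).

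The RPKM ratio of PCSK1N to PCSK1, the inhibitor to its convertase, was 5.86 and 4.99 in the control, 13.8 and 6.23 in line 1, 28.1 and 34.0 in line 2, and 1.04 for ARID1A+/-. The libraries of line 2 had the highest ratios and the ARID1A+/- library the lowest, and no ARID1A-/- library was below the control. These are ratios of RNA levels with no test.

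**Figure D2:**
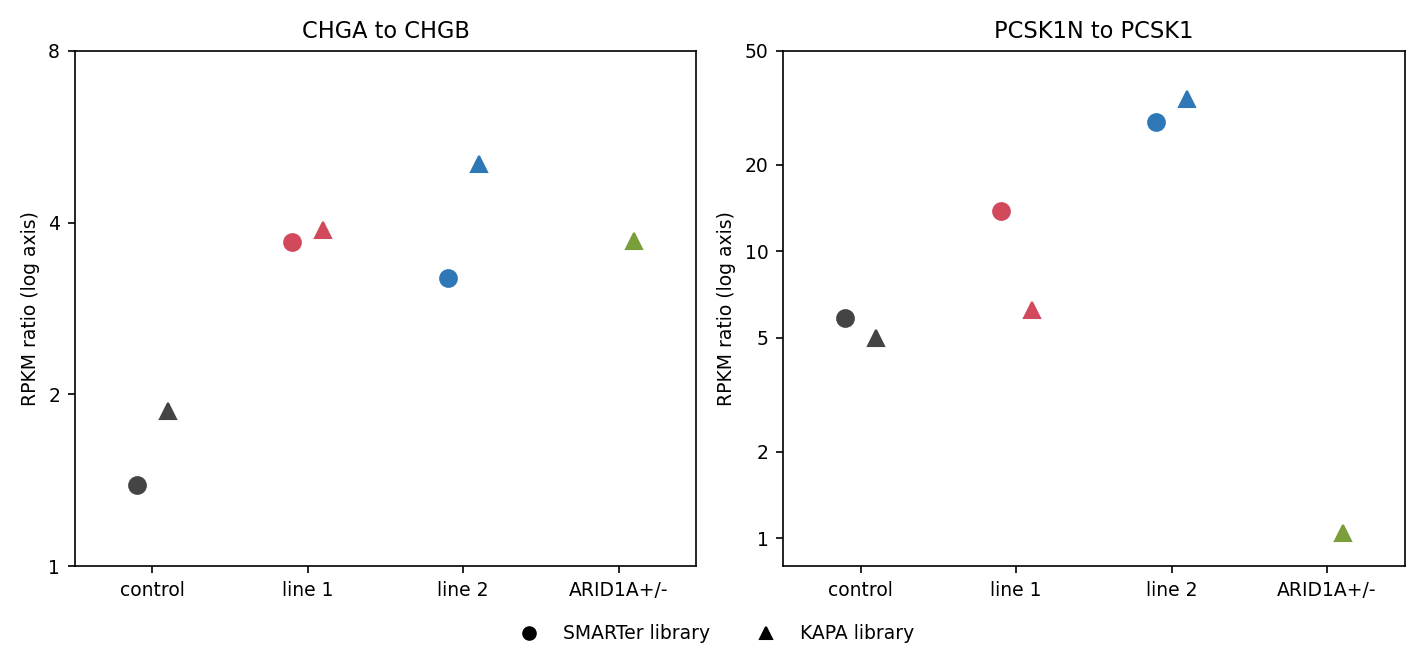
RPKM ratio of CHGA to CHGB (left) and of PCSK1N to PCSK1 (right) in each library on log axes, with circles for SMARTer and triangles for KAPA. The ratio of CHGA to CHGB is above 3 in all 5 mutant libraries, and that of PCSK1N to PCSK1 runs from 1.04 in the ARID1A+/- library to 34.0 in line 2.

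CPE, the carboxypeptidase that follows the convertases, stood at 54.1 and 35.8 RPKM in the control, 53.9 and 46.1 RPKM in line 1, 32.8 and 33.8 RPKM in line 2, and 55.6 RPKM in the ARID1A+/- library. Both libraries of line 2 were below both control libraries, and line 1 overlapped with the control. The log2 difference of CPE was -0.13 ± 0.15 for both lines (edgeR adjusted p = 0.60), 0.17 ± 0.17 for line 1 and -0.44 ± 0.18 for line 2, and none passed the threshold. CPE was thus measured at a much higher level than PCSK1, with an RPKM ratio between 11.1 in the ARID1A+/- library and 83.7 in the KAPA library of line 2.

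**Figure D3:**
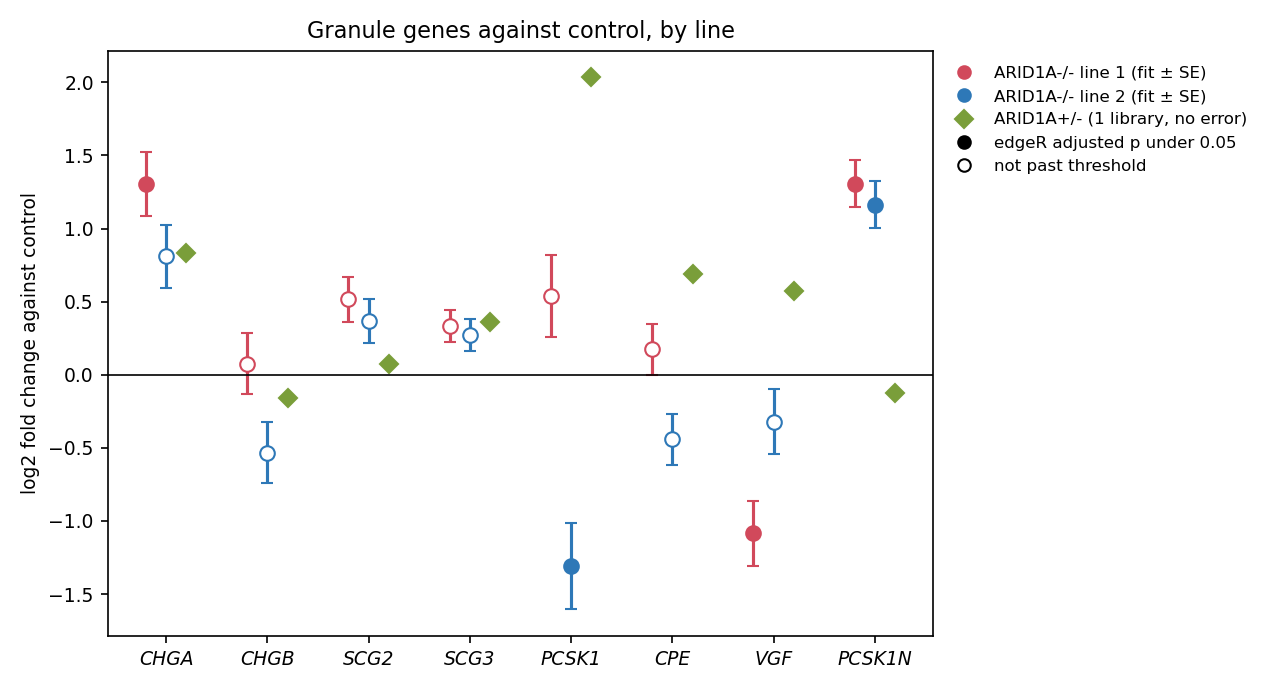
Fitted log2 fold change against control of the 8 tested granule genes in ARID1A-/- line 1 and line 2 (circles, bars are SE, filled where the edgeR adjusted p is under 0.05), and the log2 difference of the ARID1A+/- library from the KAPA control (diamonds, 1 library, no error). PCSK1N is raised in both lines and PCSK1 lies on opposite sides of 0 in line 1 (0.54) and line 2 (-1.31).

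The ARID1A+/- line, with 1 library, allows no test. Set against the control library of the same kit, its log2 difference was 2.03 for PCSK1, 0.83 for CHGA, 0.69 for CPE, 0.57 for VGF and 0.36 for SCG3. It was between -0.16 and 0.07 for CHGB, SCG2 and PCSK1N. The corresponding KAPA differences of PCSK1N were 1.13 in line 1 and 1.14 in line 2, against -0.12 in the ARID1A+/- library. Against the mean of both control libraries, the difference of PCSK1 was 1.46 and that of CHGA 0.48, while VGF (-0.02) and SCG2 (-0.73) changed sign. In RPKM the ARID1A+/- levels of SCG2 and VGF lay within the range of the control libraries and those of CHGB and PCSK1N below it. Those of PCSK1, CHGA, CPE and SCG3 lay above it. On log2 CPM, CPE (7.06) and SCG3 (7.12) lay within the range, below the SMARTer control (7.15 and 7.19).

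The libraries of the different kits also differed in several members. Of the 8 members tested, SCG2, SCG3, PCSK1, VGF and PCSK1N were higher in the SMARTer libraries and 0 were lower (edgeR adjusted p under 0.05), against 7.99% and 5.3% of all genes. The median log2 difference was 0.85 over the members and 0.01 over all genes. The log2 difference of PCSK1N was 1.49 ± 0.13 (edgeR adjusted p = 0.0082), that of VGF 1.41 ± 0.18 (edgeR adjusted p = 0.015), that of SCG2 1.35 ± 0.12 (edgeR adjusted p = 0.0088), that of PCSK1 1.09 ± 0.24 (edgeR adjusted p = 0.035) and that of SCG3 0.44 ± 0.09 (edgeR adjusted p = 0.031). CHGA differed by 0.23 ± 0.18 (edgeR adjusted p = 0.40) and was the member with different signs in the 3 groups, at 0.71 in the control, 0.21 in line 1 and -0.23 in line 2. All 5 calls were lost on leaving out the SMARTer library of the control, and likewise its KAPA library, and those of SCG3 and PCSK1 also without either library of line 2 and with limma. PCSK1N then stood at 1.54 (adjusted p = 0.089) and 1.51 (adjusted p = 0.058), with VGF and SCG2 also between 1.23 and 1.54. The kit cannot be told apart from the time or culture of the repeat.

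**Figure D4:**
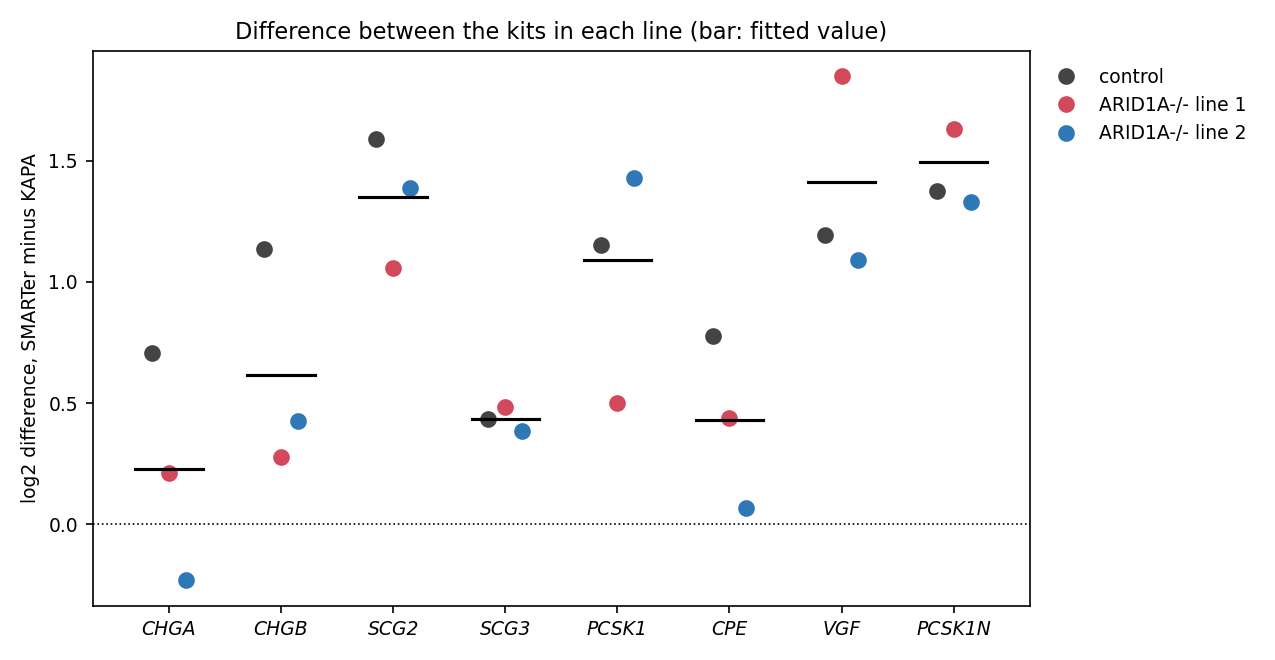
Log2 difference between the SMARTer and the KAPA library of the same line for the 8 tested granule genes, with 1 point per line and a bar at the fitted value. All points of SCG2, VGF and PCSK1N lie above 1, and those of CHGA lie on both sides of 0.

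Patterns over the 5 differences from the control library of the same kit (2 in each ARID1A-/- line and 1 in the ARID1A+/- line) were compared by Euclidean distance on log2 CPM (counts scaled by the TMM-adjusted library total). Among members, SCG2 and SCG3 were the closest pair (0.59), followed by CHGB and CPE (0.94), and PCSK1 and PCSK1N were the farthest apart (4.15). Among 8736 other genes with a mean of at least 5 RPKM, the nearest to CHGA were PCDHB14 (0.55), TTC9B (0.69) and PCOLCE (0.76). For PCSK1N the nearest were PCBD2 (0.41), B2M (0.43) and HEG1 (0.60), and for PCSK1 they were MMP2 (1.2), RTN4RL2 (1.21) and HIST3H2A (1.43). For VGF the nearest with a gene symbol were WNK2 (0.43) and CCDC85B (0.47). PCSK1 thus had no neighbour as close as those of the other 3 genes, and these distances describe 5 values only.

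The rest of the regulated secretory pathway was read from 6 lists, each given as the mean of both lines against control, beside 4.64% of all genes tested that rose and 9.57% that fell. Of the other convertases and peptide-processing enzymes, 9 of 13 passed the filter, 1 rose and 2 fell, with a median log2 fold change of -0.21. FURIN, the convertase of the constitutive pathway, fell by 0.88 ± 0.12 (edgeR adjusted p = 0.0051), and PAM, which amidates peptides, fell by 0.56 ± 0.12 (edgeR adjusted p = 0.026). PAM, like PCSK1, differed between the lines and was higher in line 1 (log2 1.02 ± 0.14; edgeR adjusted p = 0.0070). MBTPS1, the site-1 protease, rose by 0.45 ± 0.10 (edgeR adjusted p = 0.033), and the carboxypeptidase CPM was at -0.41 ± 0.11 (edgeR adjusted p = 0.060).

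Among the propeptide substrates that these enzymes process, 13 of 25 passed the filter, 2 rose and 4 fell, with a median of -0.55. ADCYAP1, the gene for the neuropeptide PACAP, rose by 7.21 ± 0.83 (edgeR adjusted p = 0.0027), and the stress hormone gene CRH by 3.81 ± 0.54 (edgeR adjusted p = 0.0060). The neuromedin genes NMU and NMB fell by 4.89 ± 0.29 (edgeR adjusted p = 0.00024) and 1.72 ± 0.26 (edgeR adjusted p = 0.0076). The genes for granule biogenesis and sorting mostly did not pass the test: of 20 measured of 23, 0 rose and 2 fell, with a median of 0.05. The granule membrane phosphatase PTPRN2 fell by 0.59 ± 0.11 (edgeR adjusted p = 0.018) and ICA1 by 0.92 ± 0.20 (edgeR adjusted p = 0.029). ICA1 was at -0.05 ± 0.24 in line 1 and fell by 1.80 ± 0.25 in line 2, and the lines differed (log2 1.75 ± 0.25; edgeR adjusted p = 0.0077). RAB2A (0.40 ± 0.11) and STX6 (-0.23 ± 0.12) did not pass.

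Of the transport, docking and release genes, 27 of 34 passed the filter, 6 rose and 6 fell, with a median of -0.01. The calcium sensor SYT7 fell by 2.17 ± 0.16 (edgeR adjusted p = 0.00048) while SYT9 rose by 1.33 ± 0.18 (edgeR adjusted p = 0.0054). MYRIP, which links granules to myosin, rose by 2.24 ± 0.16 (edgeR adjusted p = 0.00052), and the Rab effector RPH3AL fell by 1.74 ± 0.20 (edgeR adjusted p = 0.0029). For granule membrane and acidification, 11 of 16 passed the filter, 4 rose and 2 fell, with a median of 0.34. ATP6AP1, a proton pump accessory subunit, rose by 0.59 ± 0.11 and the vesicle protein SV2A by 0.65 ± 0.14. The lines differed on SV2A (log2 -1.12 ± 0.16; edgeR adjusted p = 0.0071), which was at 0.09 ± 0.16 in line 1 and rose by 1.21 ± 0.16 in line 2. The zinc transporter TMEM163 fell by 3.65 ± 0.63 in the mean of both lines and by 4.61 ± 0.86 in line 2 (edgeR adjusted p = 0.018). In line 1 TMEM163 was at -2.69 ± 0.80, short of the threshold (edgeR adjusted p = 0.075), with libraries at 0.815 and 4.48 RPKM. The lines did not pass the test of the difference between them (log2 1.92 ± 0.88; edgeR adjusted p = 0.21). SLC30A3, another zinc transporter, fell by 1.11 ± 0.20 in the mean of both lines. It fell by 2.46 ± 0.26 in line 1 against a value of 0.24 ± 0.23 in line 2, and the lines differed (edgeR adjusted p = 0.0022).

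The last list held transcription factors of neuroendocrine cells, of which 18 of 22 passed the filter, 2 rose and 6 fell, with a median of -0.04. NEUROD1 fell by 11.45 ± 0.44, from 53.2 and 24.1 RPKM in the control to at most 0.0627 RPKM in the ARID1A-/- libraries, and INSM1, a factor of granule-bearing cells, fell by 1.21 ± 0.21 (edgeR adjusted p = 0.012). CREB3L2 rose by 0.82 ± 0.11 and MYT1L by 0.74 ± 0.13. REST, the repressor of neuronal genes, was at 0.25 ± 0.27 (edgeR adjusted p = 0.60), and CREB1, which binds the cAMP response element, at -0.02 ± 0.11 (edgeR adjusted p = 0.94). REST and CREB1 lie outside the naming rule and were chosen after their values were seen. All of these lists lost calls without a control library: without its SMARTer library the numbers that rose and fell were 0 and 0, 0 and 1, 0 and 0, 1 and 1, 0 and 0, and 0 and 1, in the order of the lists given here. Without its KAPA library they were 0 and 0, 1 and 1, 0 and 0, 3 and 3, 0 and 0, and 1 and 2.

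**Figure D5:**
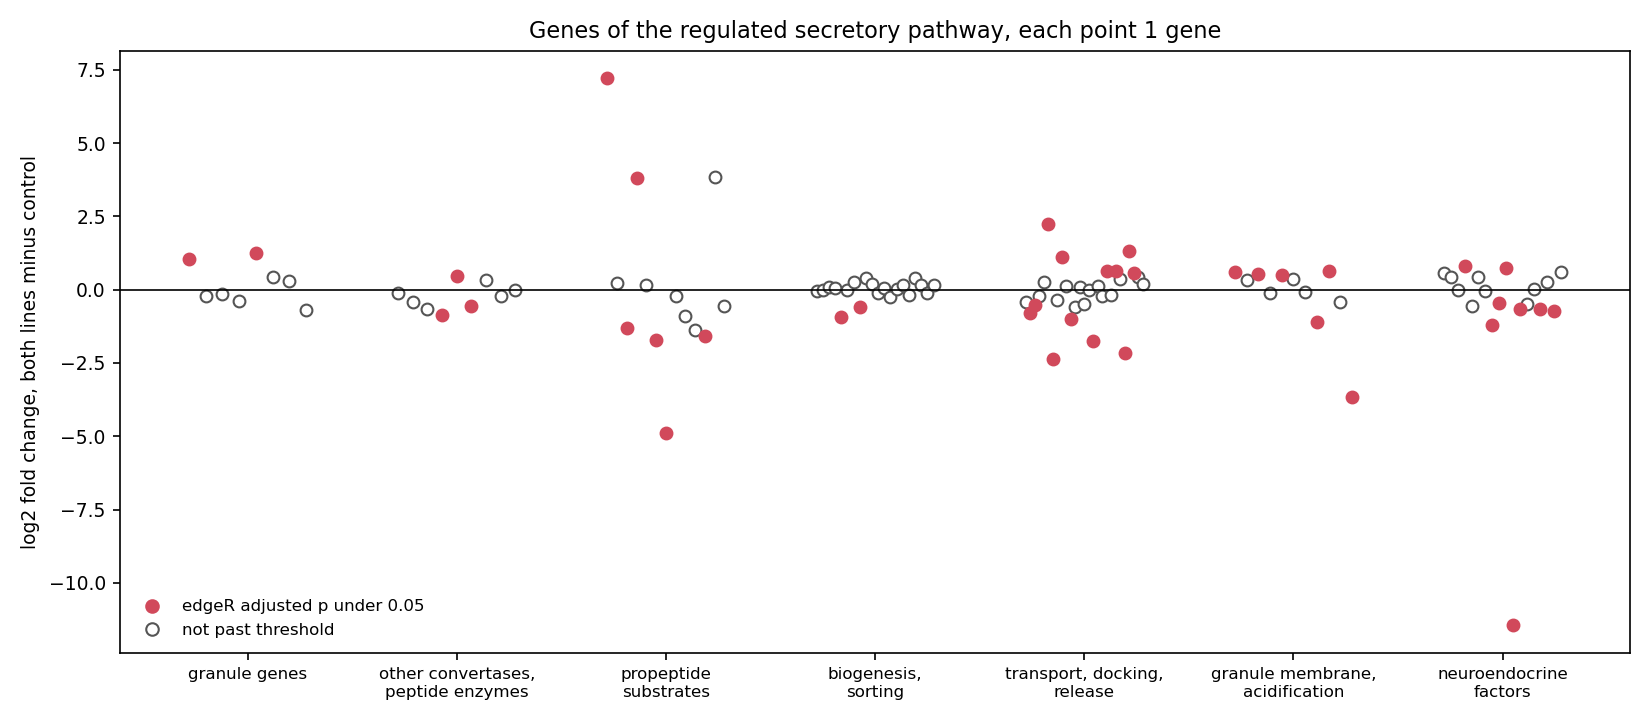
Log2 fold change of both ARID1A-/- lines against control for each tested gene (1 point per gene) of the granule set and of 6 other lists of the regulated secretory pathway, filled where the edgeR adjusted p is under 0.05. Most lists hold genes that rose beside genes that fell, and the biogenesis and sorting list holds 2 calls, both falls.

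Markers of cell types other than sympathoadrenal cells were low or moved with the lines. Adrenocortical (0.036 to 0.145 RPKM summed) and endothelial markers (0.306 to 1.09 RPKM) were nearly absent. Immune markers summed to 3.42 to 5.15 RPKM, with CD3E and AIF1 at 0 counts in all 7 libraries. Schwann markers summed to 52.7 and 34.6 RPKM in the control, 11.7 and 7.34 RPKM in line 1, 3.82 and 1.86 RPKM in line 2, and 30.5 RPKM in the ARID1A+/- library, and 2 of 8, NGFR and PMEL, passed the filter. The Schwann markers were thus lower in both ARID1A-/- lines, where CHGA and PCSK1N were higher, and their part in those changes was not tested.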

How the data were processed

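The 7 libraries were sequenced as single-end reads of 75 bp from fragments of 300 bp, per the labels' protocols. The labels name polyadenylated RNA as the molecule while the protocol describes removal of ribosomal RNA, so the RNA selection is uncertain. The aligner was HISAT2 2.1.0 and the build hg19, per the submitters' processing notes. Which program counted reads, with what annotation and strand setting, is not given in the sources used here. Reads of antisense genes that overlap SCG3, SCG5 and PCSK1 in GENCODE therefore cannot be told apart from reads of these genes. The authors deposited, for each library, whole-number counts, the length of each entry and RPKM values. Each deposited RPKM is the count divided by length and by the library's total, to within 0.000501%.

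Counts were tested with edgeR 4.0.16 (R 4.3.3) by the quasi-likelihood test after TMM scaling, over the 14711 entries with a mean of at least 0.5 RPKM in the 6 control and ARID1A-/- libraries. The model held the 3 groups and the kit and had 2 residual degrees of freedom. The 5 contrasts were both lines, line 1 and line 2 against control, line 1 against line 2, and SMARTer against KAPA. P-values were adjusted by Benjamini-Hochberg over all entries tested and called under 0.05. Standard errors were obtained as log2 fold change over the root of the F statistic. The ARID1A+/- library was described on TMM-scaled log2 CPM with a prior of 0.5 and entered no main test. Libraries of the same kit deviated together from their group means: over all tested genes kit differences of the control had a correlation of 0.51 with those of line 1 and 0.65 with those of line 2, and the ARID1A-/- lines of 0.43 with each other, so the kit number pairs the libraries. Intervals and floors cover counting error only.

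All 10 members are named. Of each other list the 4 genes with the smallest p for both lines against control are named, as is ARID1A, and for each member called in a line the 3 genes with the nearest pattern, less 1 entry without a gene symbol. CTSL, CCDC186 and EIPR1 matched no entry. Some marker genes are not reported here. The members and lists were chosen with earlier results of these data known. Alternatives were RLE and upper-quartile scaling, DESeq2 1.42.0, limma 3.58.1 on log2(RPKM + 1) and log2(RPKM + 0.1), other filters, the fit without the kit, the ARID1A+/- library added, and each library left out. The scripts were tested on simulated data. Sequences come from RefSeq, GRCh38.p14.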

Additional observations from a re-analysis of the deposited data

Results flagged for a closer look

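PCSK1, the granule convertase, differed between the ARID1A-/- lines by the test of the difference itself. Line 1 minus line 2 was 1.85 ± 0.30 on the log2 scale (edgeR adjusted p = 0.011), from 0.54 ± 0.28 in line 1 and -1.31 ± 0.29 in line 2 against the same control libraries. Both libraries of line 1 (2.72 and 2.20 RPKM) were above both libraries of line 2 (1.16 and 0.404 RPKM). The cause was not tested.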

How the results depend on the processing

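Over 40 fitted changes of members under 592 alternative fits, 513 stayed on the same side of the threshold, 40 lost a call, 39 gained one and 0 calls reversed. The sign changed in 8 fits of members that were not called: CHGB in both lines and in line 1, CPE in both lines and in line 1, SCG2 between the lines and CHGA between the kits. The replicate block is the kit term. Without the replicate block, 109 genes rose and 483 fell in both lines. The counts were 98 and 377 in line 1, 139 and 380 in line 2, and 200 and 204 between the lines, and CHGA (in both lines 1.03, adjusted p = 0.072), PCSK1N (in both lines 1.24, adjusted p = 0.413), VGF in line 1 (-0.95, adjusted p = 0.587), PCSK1 in line 2 (-1.26, adjusted p = 0.363) and PCSK1 between the lines (1.67, adjusted p = 0.239) were no longer called. Without the filter on low values, 1030 genes rose and 2117 fell in both lines, 1054 rose in line 1 and 1221 in line 2. With limma, 609 (pseudocount 1) and 615 (pseudocount 0.1) genes were higher in SMARTer libraries and 1971 and 1966 lower, and the median of all genes in that contrast moved to -0.12 and -0.15. The cause of these differences was not tested.

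Leaving out 1 library at a time gave 49 to 1447 genes higher and 208 to 2132 lower in both lines, 91 to 1253 and 270 to 1792 in line 1, and 91 to 1705 and 251 to 2044 in line 2. It gave 356 to 1087 and 392 to 1303 between the lines, and 0 to 1751 and 0 to 1139 between the kits. The kit counts of 0 came from leaving out the SMARTer control (1771 higher and 1254 lower at an unadjusted p under 0.05 in edgeR) or the KAPA control (1704 and 1408). A group left with 1 library was assumed to vary like the others. VGF in both lines was called by DESeq2 (-0.71, adjusted p = 0.012) and by limma with pseudocount 1 (-0.61, adjusted p = 0.046). Low counts limit SCG5 and PCSK2, and 62 counts limit PCSK1 in 1 library of line 2.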
